A study of Mus musculus with 8 samples.

Results

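The microRNAs (miRNAs) miR-15a-5p, miR-15b-5p, miR-16-5p, miR-195a-5p and miR-497a-5p form one seed family of the mouse heart. They were followed through 5 probe sets of an Affymetrix miRNA 4.0 array, chosen by their identifiers and not by their values, among 1908 probe sets for mature miRNAs. The array was hybridised with total RNA of 8 whole hearts of male C57/BL6 mice labelled as 8 weeks old, with 1 array per heart. In 4 hearts the left anterior descending coronary artery had been tied 21 days earlier, a surgical model of myocardial infarction (MI), and the other 4 came from sham-operated mice of the same strain, sex and age. All 8 titles also carry the suffix nc, which the labels do not explain. The sham hearts are numbered 1 to 4 and the MI hearts 1, 4, 5 and 7 in the labels, and these numbers are used below. The comparison asks whether the family differs in level between infarcted and sham-operated hearts.

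A miRNA guides a silencing complex to messenger RNAs, mainly through pairing of its seed, the bases 2 to 8 counted from the 5′ end, so miRNAs of one seed can act on overlapping sets of targets. The family is known for restraining the cell cycle, with cyclins and cell cycle kinases among its targets. In mouse hearts miR-195 is known to rise after birth, when heart muscle cells leave the cell cycle, and blocking the family has been studied as a way to let these cells divide after injury. miR-15a and miR-16 are also known as tumour suppressors in human lymphocytes, from a locus that is often deleted in chronic lymphocytic leukaemia. Fewer cells of a type and less miRNA per cell cannot be told apart in RNA from a whole heart.

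The mature sequences are shown because the shared seed defines the family and the remaining bases are what lets an array tell its members apart. All 5 members were found by name in the RefSeq miRNA table (build GRCm38.p6). Capitals mark the seed.
miR-15a-5p: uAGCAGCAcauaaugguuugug
miR-15b-5p: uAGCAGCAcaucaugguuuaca
miR-16-5p: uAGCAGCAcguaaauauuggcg
miR-195a-5p: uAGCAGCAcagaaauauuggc
miR-497a-5p: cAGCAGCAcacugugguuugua

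The 5 sequences carried 1 seed, AGCAGCA, and were the same at every base from 2 to 9. Counted from the 5′ end without gaps, miR-16-5p and miR-195a-5p were the most alike pair, with 19 of 21 compared bases the same and the differences G10A and U11G (miR-16-5p first). The least alike pair was miR-16-5p and miR-497a-5p, with 11 of 22 the same. miR-497a-5p and miR-15a-5p shared 17 of 22 bases, with the first base among those that differed (U1C, miR-15a-5p first). miR-15a-5p and miR-15b-5p shared 18 of 22 bases. No other mature probe set repeated the values of a member on all arrays (0 found), so the 5 probe sets gave separate readings. How far a probe set also reads its near relatives was not tested.

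The members come from 6 precursor hairpins at 3 places in the genome (GRCm38.p6), each place holding a pair of hairpins. Mir15a and Mir16-1 lie on the minus strand at chr14:61631880-61632110 with 54 bases between them, within the span of Dleu2, a long noncoding RNA gene. Mir15b and Mir16-2 lie on the plus strand at chr3:69009772-69009996 with 66 bases between them, within the span of Smc4, which encodes a condensin subunit that helps to compact chromosomes. Mir497 and Mir195a lie on the plus strand at chr11:70234717-70235135 with 241 bases between them. Mir497 overlaps Mir497b, a hairpin on the opposite strand. Positions relative to exons and introns were not examined.

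The same miR-16-5p is cut from both Mir16-1 and Mir16-2, so its probe set cannot say which place it came from. Both hairpins are printed with that miRNA in capitals to show that it is the same in both while the bases around it differ.
Mir16-1: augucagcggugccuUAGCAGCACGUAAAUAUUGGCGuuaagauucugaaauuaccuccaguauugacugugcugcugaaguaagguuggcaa
Mir16-2: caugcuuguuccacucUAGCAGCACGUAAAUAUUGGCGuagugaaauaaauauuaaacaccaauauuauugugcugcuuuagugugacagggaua

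Of 1679 differently named mature miRNAs in the RefSeq table, 10 hold AGCAGCA at bases 2 to 8, which is 0.596%, and 16 hold it anywhere on the printed strand, which is 0.953%. The seed carriers that are not among the members studied here include miR-322-5p on the X chromosome and miR-195b on chromosome 2. miR-195b is shown because it shares its first 16 bases with miR-195a-5p, and miR-322-5p because it shares the seed but not the first base with the miR-15 and miR-16 members.
miR-195b: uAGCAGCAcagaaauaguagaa
miR-322-5p: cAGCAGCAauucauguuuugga

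The deposited values are log2 intensities, on which 1 unit is a doubling of brightness. No member passed the test for a difference between MI and sham hearts. Of the 5 members 0 reached an adjusted p under 0.05 (limma, Benjamini-Hochberg over 1908 mature probe sets, lowest adjusted p of a member = 0.882). Over all mature probe sets 0.524% passed, so none called among 5 lies near the background. At an unadjusted p under 0.05, 0 members and 6.29% of mature probe sets passed. Among the 271 mature probe sets whose mean was at least 5, as it was for all members, 44 passed. The groups overlapped in all 5 members, while they were fully apart in 4.14% of mature probe sets. The mean was higher in MI hearts for 4 members and lower for miR-15a-5p. It was higher for 934 of all 1908 mature probe sets and for 105 of the 271 whose mean was at least 5. The median change was 0.17 log2 units over the members, against -0.0039 over the 1908 and -0.11 over the 271. The 4 members all had their lowest value in sham heart 1, so they are not separate counts of a rise.

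All members were read well above the dim spike-in controls of the array. Their lowest value on any array was 7.34 log2 units and their highest 12.3. The 17 spike-in controls picked for staying under 5 on every array reached 2.06 at most. A probe set's brightness depends on its probes as well as on the amount of RNA, so the levels of different members are not ranked. The standard errors of the members' changes ran from 0.107 to 0.190 log2 units, against a median of 0.255 over mature probe sets whose mean was at least 5. Rows for markers of heart muscle and other cell types could not be named, so the tissue label was not checked against them.

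In the deposited values the Mir497 and Mir195a pair on chromosome 11 gave the members with the largest differences in means. This order did not hold without sham heart 1, when both changes were 0.09 log2 units and that of miR-15a-5p was -0.16. miR-195a-5p (MIMAT0000225_st), the member known for its rise in the newborn mouse heart, measured 11.1, 11.5, 11.7 and 11.5 log2 units in sham hearts 1 to 4. In MI hearts 1, 4, 5 and 7 it measured 11.7, 11.6, 11.7 and 11.6. The MI hearts were closely grouped, 3 of 4 sham hearts lay below all of them, and sham heart 3 lay within their range. The means were 11.4 ± 0.263 (SD, n = 4) for sham and 11.7 ± 0.0531 (SD, n = 4) for MI. The change was 0.21 log2 units with a standard error of 0.133, or 1.16-fold, with a 95% interval from 0.938-fold to 1.44-fold (limma, adjusted p = 0.882).

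miR-497a-5p (MIMAT0003453_st), made from the neighbouring hairpin, measured 7.36, 7.93, 7.91 and 8.07 log2 units in sham hearts 1 to 4. In MI hearts 1, 4, 5 and 7 it measured 7.79, 8.01, 8.34 and 8.09. Only sham heart 1 lay below every MI heart, and 2 MI hearts lay above every sham heart. The means were 7.82 ± 0.312 (SD, n = 4) and 8.06 ± 0.228 (SD, n = 4), a change of 0.24 with a standard error of 0.179, or 1.18-fold, with a 95% interval from 0.889-fold to 1.57-fold (limma, adjusted p = 0.917).

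miR-15b-5p (MIMAT0000124_st), made within Smc4, measured 10.2, 10.7, 11.0 and 10.7 log2 units in sham hearts 1 to 4. In MI hearts 1, 4, 5 and 7 it measured 10.8, 10.5, 11.0 and 10.9. Each group held 1 heart apart from its other 3 on the low side, sham heart 1 and MI heart 4. The means were 10.6 ± 0.346 (SD, n = 4) and 10.8 ± 0.228 (SD, n = 4). The change was 0.17 with a standard error of 0.190, or 1.13-fold, with a 95% interval from 0.833-fold to 1.53-fold (limma, adjusted p = 0.933). This was the widest standard error among the members.

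miR-16-5p (MIMAT0000527_st), the product of both Mir16 hairpins, measured 11.9, 12.3, 12.2 and 12.1 log2 units in sham hearts 1 to 4. In MI hearts 1, 4, 5 and 7 it measured 12.3, 12.3, 12.2 and 12.1. The MI values lay inside the sham range except that of MI heart 4, which was slightly above it. The means were 12.1 ± 0.164 (SD, n = 4) and 12.2 ± 0.110 (SD, n = 4), and the change was 0.08 with a standard error of 0.107, or 1.06-fold, with a 95% interval from 0.892-fold to 1.26-fold (limma, adjusted p = 0.935).

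miR-15a-5p (MIMAT0000526_st), made within Dleu2 beside Mir16-1, was the member with the lower mean in MI hearts. It measured 7.62, 7.61, 7.79 and 7.51 log2 units in sham hearts 1 to 4. In MI hearts 1, 4, 5 and 7 it measured 7.68, 7.51, 7.36 and 7.34. Of the 4 MI hearts 3 lay below every sham heart, MI heart 4 by very little, and MI heart 1 lay above 3 of the sham hearts. The means were 7.63 ± 0.118 (SD, n = 4) and 7.47 ± 0.159 (SD, n = 4), a change of -0.16 with a standard error of 0.107, or 0.895-fold, with a 95% interval from 0.754-fold to 1.06-fold (limma, adjusted p = 0.897).

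**Figure D1:**
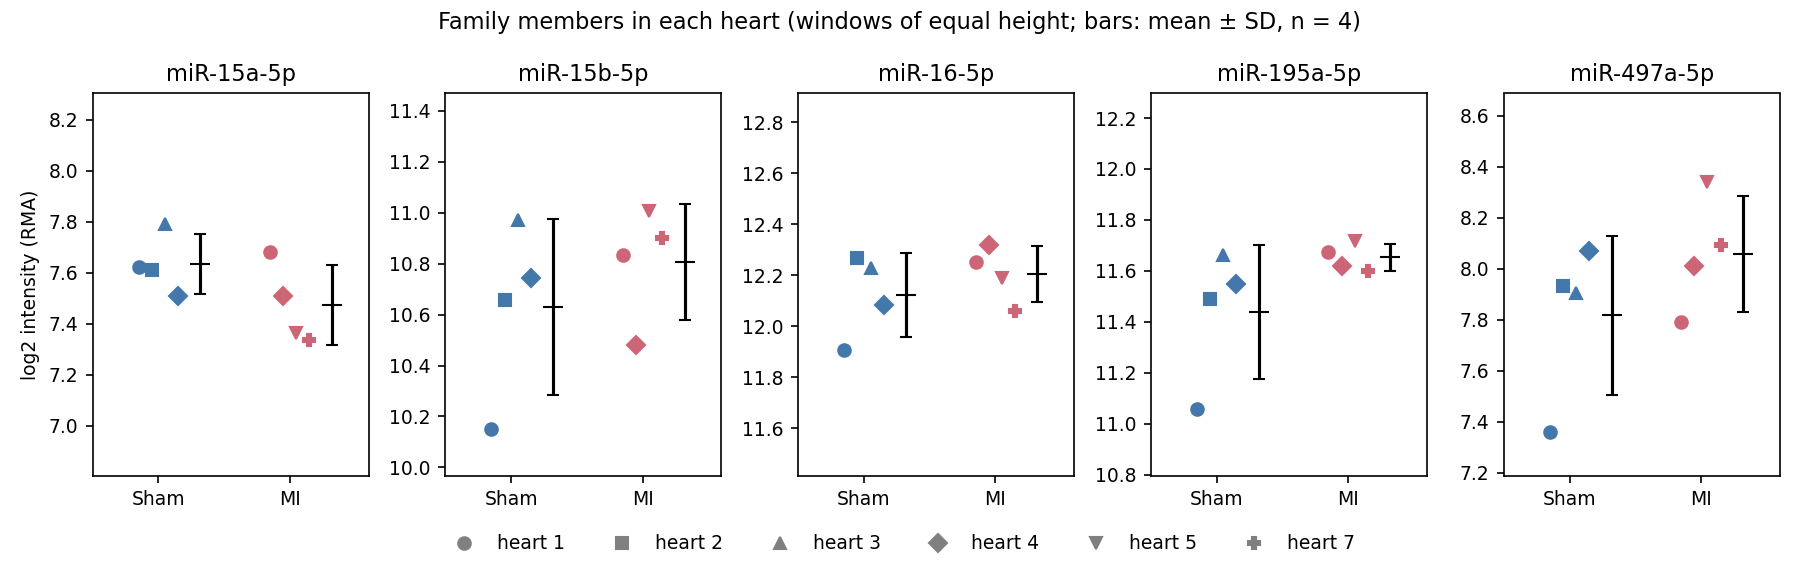
Log2 intensity of each family member in every heart, with sham hearts in blue and MI hearts in red, the heart's number by symbol, and the mean ± SD of each group (n = 4) in black beside the points. Each panel has its own range of equal height, so spreads can be compared between panels but levels cannot. The groups overlap in all 5 panels, and sham heart 1 (circle) is the lowest point in every panel but that of miR-15a-5p.

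The intervals bound what these hearts leave possible under the main test. The upper ends of the 95% intervals ran from 1.06-fold for miR-15a-5p to 1.57-fold for miR-497a-5p, and the lower ends from 0.754-fold for miR-15a-5p to 0.938-fold for miR-195a-5p. None of the 5 intervals reached a doubling or a halving. Their widths depend on the variance prior, which was fitted over all mature probe sets. With an intensity trend and robust prior the standard error was 0.265 for miR-15a-5p, against 0.107 in the main test. For miR-497a-5p it was 0.273, against 0.179, so the ends given here are not firm limits. A missed threshold does not show that the groups were equal. Centring each array on its 477 brightest mature probe sets raised the change of every probe set by 0.11, which gave -0.05 for miR-15a-5p, 0.28 for miR-15b-5p, 0.19 for miR-16-5p, 0.32 for miR-195a-5p and 0.35 for miR-497a-5p (limma, lowest adjusted p = 0.984).

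Among the single arrays left out, sham heart 1 reduced the 4 positive differences most. It stands out here for its low values, so leaving it out had to shrink them. Other omissions moved them too, to 0.05 for miR-16-5p without MI heart 4 and 0.29 for miR-15b-5p without sham heart 3. Sham heart 1 gave the lowest of the 8 values for miR-15b-5p, miR-16-5p, miR-195a-5p and miR-497a-5p. Its deviation from the mean of the 8 hearts averaged -0.47 log2 units over these 4 members, while its value of miR-15a-5p was 0.07 above. Without sham heart 1 the changes were 0.01 for miR-15b-5p, 0.01 for miR-16-5p, 0.09 for miR-195a-5p and 0.09 for miR-497a-5p, and that of miR-15a-5p was -0.16 (limma, lowest adjusted p = 0.802).

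The bright probe sets as a whole were not low in that heart. The median of the 477 brightest mature probe sets was 5.91 log2 units in sham heart 1, within the 5.45 to 6.02 of all hearts. The hybridisation spike-ins of bacterial origin (15 probe sets named bioB or bioC) averaged 11.2 in sham heart 1 and 11.1 in sham heart 2, the lowest of the 8 arrays, where the highest was 11.9 in sham heart 3. Over the 8 hearts Pearson's r with these controls, given as a description, was 0.589 for miR-15b-5p, 0.308 for miR-16-5p, 0.626 for miR-195a-5p, 0.530 for miR-497a-5p and 0.049 for miR-15a-5p. The part of the controls in the low values was not tested beyond the covariate. With the controls as a covariate the changes were -0.16 for miR-15a-5p, 0.14 for miR-15b-5p, 0.08 for miR-16-5p, 0.19 for miR-195a-5p and 0.22 for miR-497a-5p (limma, lowest adjusted p = 0.805). MI heart 5 was the highest of the 8 hearts for 3 members, miR-15b-5p, miR-195a-5p and miR-497a-5p, and its median over the brightest probe sets was the lowest of all, 5.45.

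**Figure D2:**
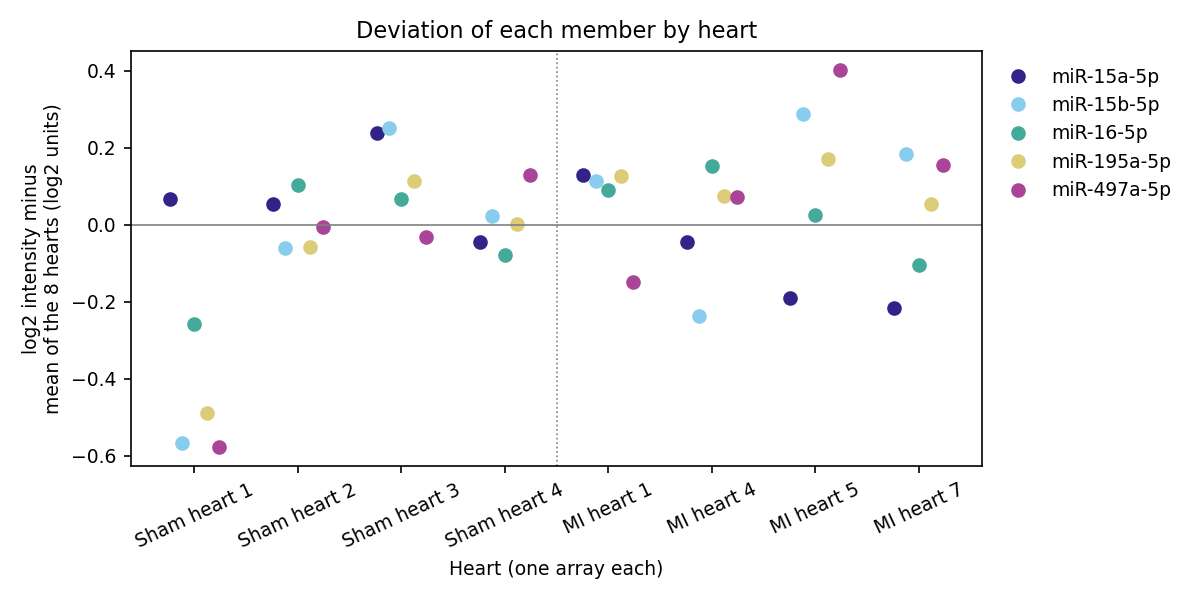
Deviation of each family member from its own mean over the 8 hearts, in log2 units, by heart, with sham hearts to the left of the dotted line and MI hearts to the right. In sham heart 1 miR-15b-5p, miR-16-5p, miR-195a-5p and miR-497a-5p lie between -0.58 and -0.26 while miR-15a-5p lies at 0.07. In MI hearts 5 and 7 miR-15a-5p is the lowest of the members.

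Whether the members changed by unequal amounts was tested on the difference between 2 members within each heart, over all 10 pairs. An array's overall brightness cancels in such a difference. None of the 10 pairs passed (exact two-sided permutation test over 70 assignments, lowest p = 0.0571, lowest adjusted p over the 10 pairs = 0.429). The smallest possible p is 0.0286, which after adjustment gives a single pair 0.286, so at least 6 of the 10 pairs would have had to reach that floor for any to pass. The adjusted values therefore decide nothing about one pair, and the intervals are given instead. The 4 pairs with miR-15a-5p had the largest differences, from 0.24 log2 units against miR-16-5p to 0.40 against miR-497a-5p, all with the other member the more positive. Part of their size came from sham heart 1. Without it they were 0.18 for miR-15b-5p, 0.17 for miR-16-5p, 0.25 for miR-195a-5p and 0.25 for miR-497a-5p (exact permutation test, lowest p = 0.114). On leaving out other arrays they rose to as much as 0.45 for miR-15b-5p, 0.30 for miR-16-5p, 0.45 for miR-195a-5p and 0.56 for miR-497a-5p. The lowest p, that of miR-195a-5p without sham heart 4, was at the floor (exact permutation test, p = 0.0286, adjusted p = 0.286).

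The pair of miR-195a-5p and miR-15a-5p had the lowest p. Their within-heart difference was 3.44, 3.88, 3.87 and 4.04 log2 units in sham hearts 1 to 4, and 3.99, 4.11, 4.35 and 4.26 in MI hearts 1, 4, 5 and 7. The groups overlapped through sham heart 4 and MI heart 1 alone. The MI mean was higher by 0.38, with an exact interval of 97.1% confidence from -0.05 to 0.92 (exact permutation test, p = 0.0571, adjusted p = 0.429). Next came miR-16-5p and miR-15a-5p, partly made from the same place, with a mean difference of 4.49 ± 0.164 (SD, n = 4) in sham and 4.73 ± 0.116 (SD, n = 4) in MI hearts. The interval of that change ran from -0.09 to 0.54 (exact permutation test, p = 0.0857, adjusted p = 0.429).

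The neighbours miR-497a-5p and miR-195a-5p had the smallest difference in change, 0.03 log2 units, with an exact interval from -0.40 to 0.38 (exact permutation test, p = 0.857, adjusted p = 0.857). For miR-195a-5p and miR-15b-5p, from different chromosomes, it was 0.04, with an interval from -0.21 to 0.45 (exact permutation test, p = 0.743, adjusted p = 0.825). The interval was narrowest for the most alike sequences, miR-195a-5p and miR-16-5p, from -0.16 to 0.39 around 0.13 (exact permutation test, p = 0.229, adjusted p = 0.514).

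**Figure D3:**
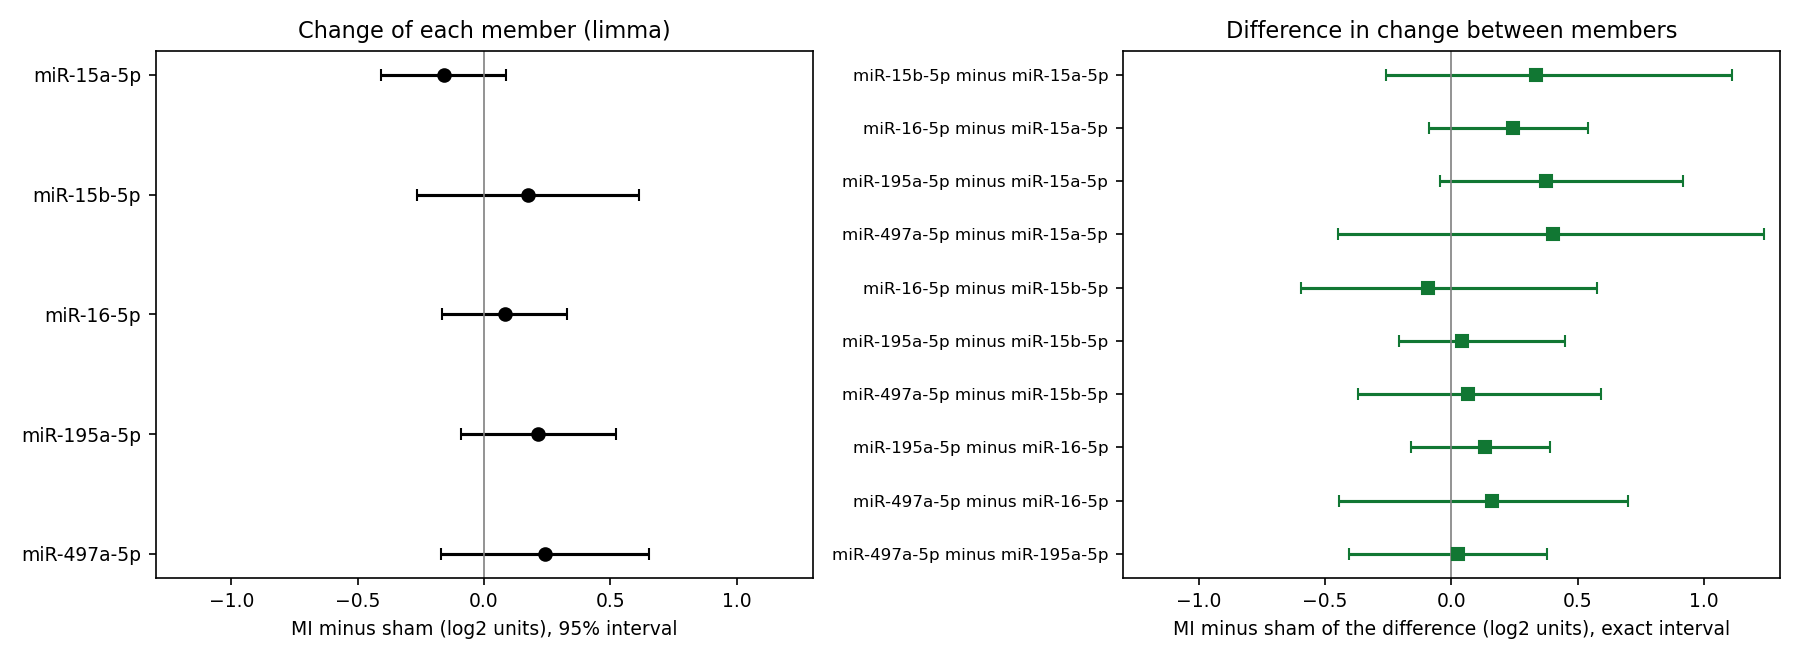
Left, the change of each family member (MI minus sham, log2 units) with its 95% interval from limma. Right, the difference in change between 2 members for the 10 pairs, with its exact permutation interval of 97.1% confidence. Every interval in both panels includes 0, and the 4 pairs with miR-15a-5p lie farthest to the right.

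Across the 8 hearts, miR-15b-5p and miR-195a-5p varied together most, with Pearson's r of 0.867 (exact permutation p = 0.0127, adjusted p = 0.125 over 10 pairs) and Spearman's rho of 0.762 (exact permutation p = 0.0368, adjusted p = 0.184). Without sham heart 1 and MI heart 4, the farthest from the median of miR-15b-5p, r was 0.890, and without sham heart 1 alone it was 0.564. Among all 36585 pairs of mature probe sets whose mean was at least 5, r had a median of 0.05 and reached at least 0.867 in 3.43%. By Pearson's r, 0 of the 10 member pairs passed after adjustment. At an unadjusted p under 0.05 for r, 4 of the 10 passed, against 19.2% of all pairs of those mature probe sets, and they were the pairs of miR-195a-5p with miR-15b-5p, miR-16-5p and miR-497a-5p, and of miR-15b-5p with miR-497a-5p. By Spearman's rho 2 pairs did, miR-15b-5p with miR-195a-5p and miR-15a-5p with miR-497a-5p, and neither passed after adjustment. The share of all pairs was not computed for rho, so these 2 cannot be set against a background.

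The neighbours miR-195a-5p and miR-497a-5p had r of 0.820 (exact permutation p = 0.0376, adjusted p = 0.125) and rho of 0.333 (exact permutation p = 0.428, adjusted p = 0.856). An r at least as high was found in 5.76% of all pairs of mature probe sets whose mean was at least 5. Without sham hearts 1 and 2, the farthest from the median, r was 0.142, and without sham heart 1 alone it was 0.255, so the relation rested on sham heart 1. For miR-16-5p and miR-195a-5p r was 0.739 (exact permutation p = 0.0499, adjusted p = 0.125) with rho of 0.333 (exact permutation p = 0.428, adjusted p = 0.856), and r was 0.08 without sham heart 1 and MI heart 7 and 0.114 without sham heart 1 alone. An r at least as high was found in 10.5% of those pairs. For miR-15b-5p and miR-497a-5p r was 0.760 (exact permutation p = 0.0364, adjusted p = 0.125) with rho of 0.524 (exact permutation p = 0.197, adjusted p = 0.655), and r was 0.431 without sham heart 1 and MI heart 4 and 0.304 without sham heart 1 alone. Here the share of pairs was 9.31%.

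For miR-15a-5p and miR-16-5p, made from neighbouring hairpins on chromosome 14, r was 0.203 (exact permutation p = 0.636, adjusted p = 0.707), with rho of 0.167 (exact permutation p = 0.703, adjusted p = 0.935), and r was -0.095 without sham heart 3 and MI heart 7 but 0.529 without sham heart 1. For miR-15a-5p and miR-497a-5p r was -0.602 (exact permutation p = 0.109, adjusted p = 0.218) and rho was -0.857 (exact permutation p = 0.0107, adjusted p = 0.107), and r was -0.780 without sham heart 3 and MI heart 7. Each point is 1 array, so whatever an array adds to several probe sets enters these values too. MI and sham hearts were pooled, so a difference between the groups enters them as well. With each group centred on its own mean, r was 0.483 for miR-15a-5p and miR-16-5p and -0.472 for miR-15a-5p and miR-497a-5p. For the 4 pairs with an unadjusted p of r under 0.05 it then ran from 0.709 to 0.870.

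The mature probe sets most like the mean of the 5 members over the 8 hearts, each member first scaled to its own SD, were sought in the brightest 25%. The 4 nearest had r from 0.862 to 0.921. They were picked as the highest among these 477 probe sets, members left out, so an r this high does not show a particular likeness. Their adjusted p for MI against sham ran from 0.920 to 0.984 (limma). The nearest, MIMAT0009456_st, had a mean of 8.01 ± 0.717 (SD, n = 4) for sham and 8.06 ± 0.262 (SD, n = 4) for MI on the log2 scale. The next, MIMAT0004894_st, had 9.05 ± 0.535 (SD, n = 4) and 9.38 ± 0.242 (SD, n = 4). The files and the tables used here do not pair these identifiers with names.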

How the data were processed

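Per the labels' protocols, total RNA of frozen hearts was given a poly(A) tail and labelled with biotin. The deposited values are log2 intensities made by the authors with RMA, per the submitters' processing notes. Its version is not given in the sources used here, scanner files and detection calls were not used here, and the number of arrays limits the precision.

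Members and lists were chosen with earlier results of these data known. The 5 identifiers came with their miRNA names, and no table used here names other rows, so opposite arms, hairpins, other seed carriers, cell cycle miRNAs and cell type markers were not tested. The probe sets set for naming were the 5 members and the 4 nearest in pattern, of which 2 are printed.

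The test was limma 3.58.1 (lmFit and eBayes, R 4.3.3), two-sided, with group as the only term, no filter, and adjustment over 1908 mature probe sets. It was tested on simulated data. Exact permutation tests ran over 70 assignments of the 8 arrays, or over 40320 orders for a correlation, in Python 3.11.15. An exact interval holds the shifts that the test does not reject. The labels do not say whether hearts shared a surgery or processing day. Alternatives were quantile normalization, centring on the brightest 25%, restriction to the brightest 50% or 25%, an intensity trend with robust prior, array weights, an unmoderated test, the replicate number as a block, and leaving out each array. The covariate was added after the data were seen. The correlations between members were planned as a description without p. Their tests, shares of pairs and values without chosen hearts were not in that plan. No pairing was used, because the numbers in the titles do not state one. The groups share the numbers 1 and 4 only, and group-centred values of same-numbered hearts correlated at -0.38 and -0.11, too few values to decide about a pairing.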

Additional observations from a re-analysis of the deposited data

How the results depend on the processing

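None of the 5 members passed under any of the 17 alternatives, and in limma the lowest adjusted p among them was 0.677, without MI heart 1. The lowest unadjusted p, 0.0399, was that of miR-195a-5p after quantile normalization (change 0.26, adjusted p = 0.688). Directions held in all but 1 case, that of miR-15a-5p with the replicate number as a block, which gave 0.030 (adjusted p = 0.999) and leaves 1 residual degree of freedom; that block left 0 mature probe sets past the threshold. Leaving out each array gave changes from -0.23 to -0.11 for miR-15a-5p, 0.01 to 0.29 for miR-15b-5p, 0.01 to 0.13 for miR-16-5p, 0.09 to 0.29 for miR-195a-5p and 0.09 to 0.33 for miR-497a-5p. The pairwise differences in change kept their sign under quantile normalization. On leaving out arrays, miR-195a-5p minus miR-15b-5p ran from -0.057 to 0.090, miR-497a-5p minus miR-15b-5p from -0.024 to 0.17 and miR-497a-5p minus miR-195a-5p from -0.045 to 0.12, so these signs are not settled. Calls among mature probe sets numbered 10 in the deposited data, 25 after centring, 20 and 22 in the brightest 50% and 25%, 18 with the intensity trend, 17 with array weights, and 7 to 17 on leaving out arrays, with the highest count without sham heart 3. Of the 4 probe sets nearest in pattern, 1 was again among the nearest 4 over all mature probe sets and 0 after quantile normalization. The causes were not tested. No group of 4 values held a heart far enough from the others to be set apart (0 of 10 groups, largest gap 0.770 of the range, sham heart 1 for miR-497a-5p).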
